A study of Bos indicus with 6 samples.

Results

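The genes described here encode the claudins and other proteins of cell junctions and cell polarity. Besides the claudins, these are occludin and its relatives, the junctional adhesion molecules, the cingulins, the polarity proteins of the apical border and the connexins of gap junctions. The genes were chosen by symbol alone, from a table of the isthmus of Nelore cows, and 56 of the 24616 genes of that table carried such a symbol. Of these, 21 were claudins, 18 were connexins, 7 were other membrane proteins of the tight junction or their relatives, 7 were polarity proteins and 2 were the scaffolds cingulin and paracingulin. The remaining member, CGN1, is listed under a symbol used for bovine conglutinin, a soluble collectin that is not a junction protein, and it held at most 2 reads in any cow. No row was named TJP1 to TJP3 or CRB3. The zonula occludens scaffolds stood in the table as ZO1, ZO2 and ZO3, which were noticed after the row names had been seen and are given apart.

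Tight junctions join epithelial cells near their apical border. Claudins form the strands and decide, by which claudins are present, whether the space between the cells is closed or lets selected ions and water through. Occludin and tricellulin accompany the strands, junctional adhesion molecules help to place them, cingulin and the zonula occludens proteins tie them to the cytoskeleton, and the Par and Crumbs complexes set where the junction is built. Connexins assemble into channels that join the cytoplasm of neighbouring cells, in epithelium, smooth muscle and endothelium alike. In the oviduct, the epithelium that these junctions seal makes the fluid in which the gametes and the early embryo live.

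The study asked how the size of the ovulatory follicle, and with it the sex steroids before and after ovulation, changes the oviduct. Healthy multiparous Nelore cows were presynchronized with a prostaglandin F2α (PGF) analog and a GnRH agonist. On day -10 all of them received an intravaginal progesterone device of 1 g and 2 mg of estradiol benzoate. Cows of the large follicle-large corpus luteum group (LF/LCL) also received PGF on that day, and their device was removed 42 h before ovulation was induced with a GnRH agonist. In the small follicle-small corpus luteum group (SF/SCL) it was removed 30 h before, and both groups received PGF at removal and again later that day. Tissue was taken on day 4, and the sequenced animals were the top-ranked cows of LF/LCL and the bottom-ranked cows of SF/SCL, so that they stand for the ends of the groups rather than for their average. Each of the 3 cows per group gave 1 isthmus library, and cows are named by their numbers, 617, 79 and 527 in LF/LCL and 856, 489215 and 97 in SF/SCL. Values are normalized read counts, which are reads divided by a size factor of the library, and lists of 3 values follow that order of cows.

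The libraries held 23899117 to 34193164 reads assigned to genes, and 3 reads, the most that a count of 0 leaves room for by counting error, corresponded to 2.28 to 3.99 normalized counts. Cow 489215 stood apart from the other cows of its group. Over the 15387 genes tested, the median absolute log2 distance from the LF/LCL mean was 0.0976 to 0.127 in the LF/LCL cows, 0.335 in cow 856, 0.309 in cow 97 and 0.676 in cow 489215. Over the tested members, that distance was 0.130 to 0.186, 0.525, 0.451 and 0.912. Each LF/LCL cow is part of that mean, and the SF/SCL distances also hold the difference between the groups, so that only distances within a group compare directly. Because cow 489215 lay farther out than cows 856 and 97, group differences are given with and without it.

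The tissue was a mixture of cell types, and the marker lists of these cell types also moved between cows. General epithelium markers, 8 of 9 of which were found, summed to 26644 to 41514 in LF/LCL and 45753 to 63310 in SF/SCL. Of the 8, 5 (EPCAM, KRT8, KRT18, KRT7 and ESRP1) did not overlap between the groups, all of them higher in SF/SCL. KRT19, ELF3 and GRHL2 overlapped. ELF3 had the higher mean in LF/LCL, 1315 against 980, and GRHL2 was lowest of all in cow 489215, at 112. Secretory epithelium markers (4 of 4 found) summed to 3419 to 6541 in LF/LCL, to 291434 and 345984 in cows 856 and 97, and to 4330 in cow 489215. Most of the sum in cows 856 and 97 was the oviductal glycoprotein OVGP1, at 271794 and 325158. PAX8 and MSLN were also above the LF/LCL range in these cows. In cow 489215, MSLN (2299) was above that range as well and PAX8 (469) below it. SLC34A2 went the other way, with a mean of 1653 in LF/LCL and 911 in SF/SCL. Smooth muscle markers (6 of 7) summed to 694207 to 814098 in LF/LCL, to 315210 and 380675 in cows 856 and 97, and to 1207460 in cow 489215. Ciliated epithelium markers (8 of 8) summed to 36185 to 47617 in LF/LCL and 45382 to 68761 in SF/SCL. Endothelium markers (7 of 8) summed to 12673 to 16264 and 10950 to 15050, and fibroblast markers (5 of 5) to 287776 to 356045 and 146894 to 204688. No gene of these lists was at 0 in every cow. In bulk tissue, fewer cells of a type and less RNA per cell cannot be told apart, and the part that cell composition had in the values below was not tested, apart from the centring on epithelium markers described for the claudins.

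Of the 56 members, 17 had a mean of at least 1000 normalized counts, 25 a mean from 15 to 1000 and 14 a mean under 15. Genes were tested where the mean over the 6 cows was above 5 and above the standard deviation, which 40 members met: 11 claudins, 13 connexins, the 7 other membrane proteins, the 7 polarity proteins and both scaffolds. With all 6 cows, 0 of the 40 members differed between the groups in limma with Benjamini-Hochberg adjustment, as did 0% of the 15387 genes. An unadjusted p under 0.05 was given to 5 members by limma and to 4 by edgeR, which also called 0, against 8.66% of all genes in limma. All 3 cows of a group were above all 3 of the other for 7 of the 40 members, or 17.5%, and for 18.1% of all genes, so that the share among the members was near the background. The median log2 difference, SF/SCL minus LF/LCL, was -0.11 over the members and -0.02 over all genes. With 3 cows against 3, an exact permutation test of a single gene cannot give a p under 0.1.

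**Figure D1:**
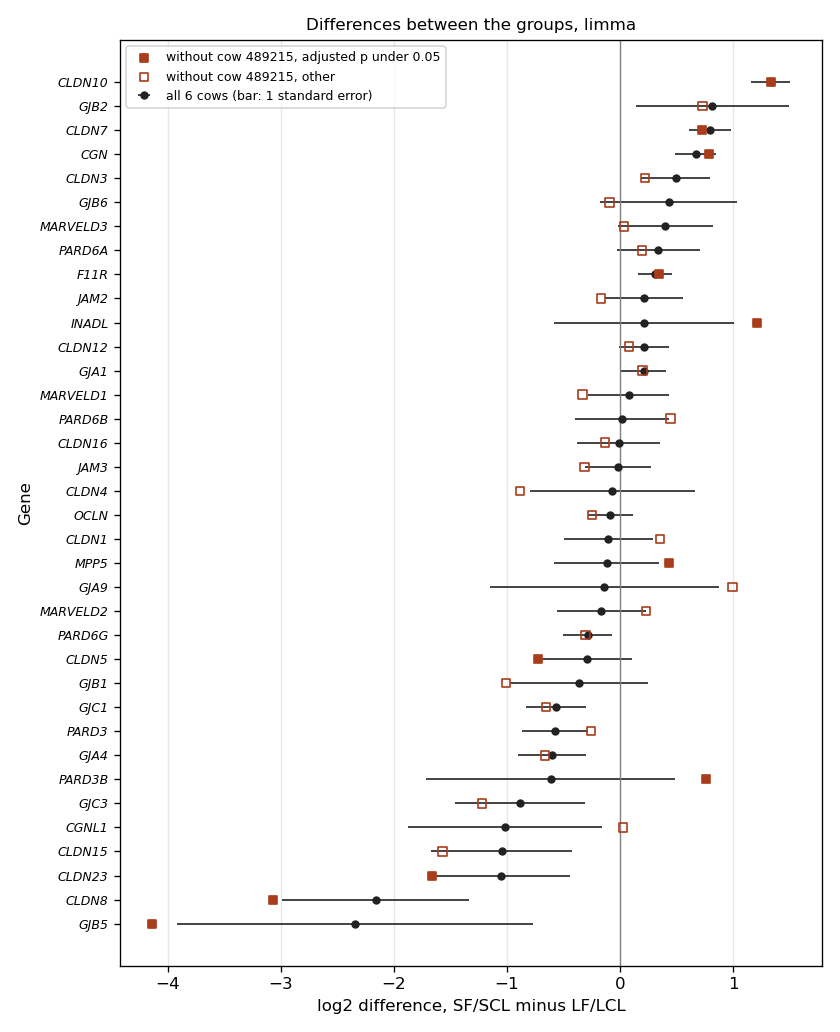
Log2 difference between the groups (x axis, SF/SCL minus LF/LCL, log2 of normalized count plus 1) for 36 of the members tested (y axis), with all 6 cows (black points, bars of 1 standard error) and without cow 489215 (squares, filled where the adjusted p was under 0.05). CLDN10, at 1.33, holds its place without that cow, while GJB5, CLDN8, INADL and PARD3B move farther from 0 or across it.

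When cow 489215 was left out, 13 of 41 members passed the same test, 7 of them higher in SF/SCL and 6 higher in LF/LCL, against 18.2% of 15495 genes. Those higher in SF/SCL were CLDN7, CLDN10, F11R, CGN, INADL, MPP5 and PARD3B, and those higher in LF/LCL included CLDN5, CLDN8, CLDN23 and GJB5. For 25 of the 41 the groups then did not overlap, as for 52% of all genes. Of these 25, cow 489215 lay on the side of the other SF/SCL cows for 8, within the LF/LCL range for 4, and beyond the LF/LCL range on the far side for 13. These calls rest on 2 SF/SCL cows.

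The claudin with the clearest separation was CLDN10, which forms pores for ions between cells. Its normalized counts were 1522, 1555 and 1419 in LF/LCL and 4303, 3774 and 3308 in SF/SCL. Each SF/SCL cow lay above every LF/LCL cow, cow 489215 included. The log2 difference was 1.33 (SE 0.17, n = 3 per group), with an adjusted p of 0.351 in limma, the smallest among the members, and from 2.03e-08 in DESeq2 to 0.999 over the alternatives. Without cow 489215 the difference was again 1.33 (SE 0.13, adjusted p = 0.00282 in limma). CLDN7, a claudin found along the lateral membrane of many epithelia, counted 3779, 3281 and 2831 in LF/LCL and 5808, 6248 and 5035 in SF/SCL. Here too the groups were apart in all cows. Its log2 difference was 0.79 (SE 0.19), with an adjusted p of 0.381 in limma and 0.0186 to 0.999 over the alternatives. DESeq2, run on the recovered reads, called CLDN7 (adjusted p = 0.0186) and CLDN10 and no other member, while it called 2.66% of all genes.

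Both genes were higher in the group whose summed general epithelium markers were higher. When the mean log2 value of these markers was subtracted from each cow, the median of all genes shifted to -0.58. On that scale CLDN10 differed by 0.77 (unadjusted p = 0.0405 in limma, adjusted p = 0.312) and CLDN7 by 0.23. CLDN10 was the 1 member of 40 with an unadjusted p under 0.05 and a higher value in SF/SCL on that scale, against 8 members higher in LF/LCL. Of all 15387 genes, 31 and 2350 were higher in SF/SCL and LF/LCL by the same measure, so that the lean of the members towards LF/LCL was that of the whole table.

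CLDN3, a claudin that tightens the barrier, was the claudin with the most reads. It counted 5447, 5398 and 3613 in LF/LCL and 6208, 9656 and 4914 in SF/SCL. The groups overlapped through cow 97, and cow 489215 was the highest of all. SF/SCL minus LF/LCL, on the log2 scale, was 0.49 (SE 0.31, adjusted p = 0.752 in limma), 0.22 without cow 489215 and -0.07 on the scale centred on epithelium markers. CLDN4, which stands next to CLDN3 in the RefSeq annotation of the Bos indicus assembly NIAB-ARS_B.indTharparkar, counted 1074, 831 and 440 in LF/LCL and 344, 2167 and 457 in SF/SCL. Cow 489215 again was the highest, cow 856 was below the LF/LCL range and cow 97 near its lower end. Its difference was -0.07 (SE 0.73) with all cows, 0.34 in DESeq2, and -0.88 without cow 489215 (adjusted p = 0.148 in limma).

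CLDN1, a claudin of tight barriers such as that of the epidermis, counted 3846, 3710 and 4244 in LF/LCL and 5711, 1945 and 4400 in SF/SCL. Cows 856 and 97 were above the LF/LCL range and cow 489215 was far below it. The log2 difference was -0.10 (SE 0.40, adjusted p = 0.960 in limma) with all cows and 0.35 (adjusted p = 0.118) without cow 489215. CLDN5, the main claudin of endothelium, counted 1459, 2015 and 1589 in LF/LCL and 891, 2488 and 1151 in SF/SCL. Its difference was -0.29 with all cows and -0.72 without cow 489215 (adjusted p = 0.0369 in limma). The endothelium markers summed to 10950 and 11207 in cows 856 and 97, below the LF/LCL range, and to 15050 in cow 489215, within it. They did not move together in cow 489215. There CDH5 (422) and KDR (3344) were below every LF/LCL cow, EMCN (4179) and ERG (795) above, and VWF, TEK and TIE1 within the range.

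CLDN8, a claudin known to limit the passage of cations in the kidney, had the largest difference among the 11 tested claudins. It counted 838, 1466 and 2058 in LF/LCL and 112, 1077 and 232 in SF/SCL. Cows 856 and 97 were far below the LF/LCL range, and cow 489215 lay inside it. The estimated log2 difference was -2.16 (SE 0.83, unadjusted p = 0.0371, adjusted p = 0.528 in limma, 0.00774 to 0.999 over the alternatives). Without cow 489215 it was -3.07 (SE 0.44, adjusted p = 0.00774). CLDN23, a claudin of epithelia with few studies of its role, counted 259, 289 and 289 in LF/LCL and 137, 316 and 55.3 in SF/SCL. The placing of the cows was as for CLDN8, except that cow 489215 exceeded every LF/LCL cow. Its difference was -1.05 (SE 0.61, adjusted p = 0.726 in limma) and, without cow 489215, -1.67 (adjusted p = 0.0295).

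**Figure D2:**
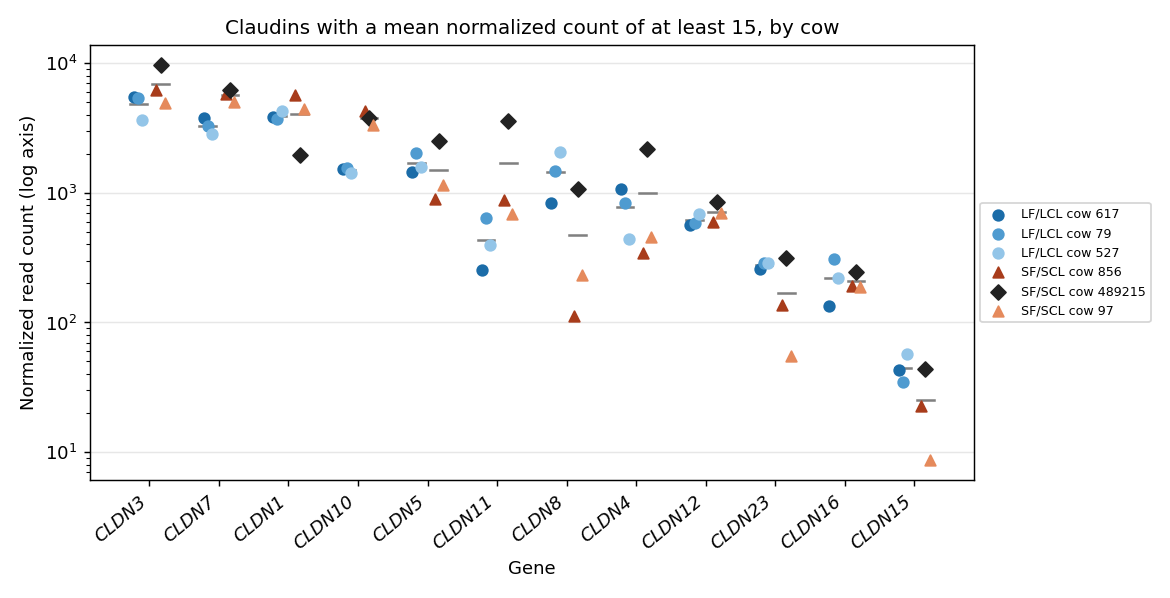
Normalized read counts (y axis, log scale) of the 12 claudins with a mean of at least 15 (x axis), with 1 marker per cow and a grey line at each group mean. LF/LCL cows are circles, SF/SCL cows 856 and 97 triangles and SF/SCL cow 489215 a diamond, which sits with the triangles for CLDN10 and CLDN7, below all circles for CLDN1 and among or above the circles for CLDN5, CLDN8, CLDN4 and CLDN23.

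CLDN11, known from myelin and from the Sertoli cell barrier of the testis, was left out of the test because its standard deviation exceeded its mean. It counted 253, 640 and 395 in LF/LCL and 879, 3567 and 685 in SF/SCL. The SF/SCL cows were all above the LF/LCL cows, by a small margin in cow 97 and a wide one in cow 489215. Without cow 489215 the gene passed the filters, with a difference of 0.95 (SE 0.37, adjusted p = 0.125 in limma). Among the remaining claudins with a mean of at least 15, CLDN12 spanned 567 to 685 in LF/LCL and 600 to 847 in SF/SCL, CLDN16, a claudin of renal magnesium uptake, 134 to 309 and 189 to 245, and CLDN15, a cation pore of the intestine, 34.7 to 57.1 and 8.67 to 43.9.

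CLDN2, which forms pores for cations and water, was at the edge of detection. It held 2, 0 and 1 reads in LF/LCL and 57, 2 and 20 reads in SF/SCL. Only cows 856 and 97 exceeded 3 reads, the level that a count of 0 allows. These same cows held the high secretory marker sums, which were mostly OVGP1. CLDN9 held 3, 0 and 1 reads in LF/LCL and 14, 0 and 8 reads in SF/SCL, with the same cows above the others. CLDN6, CLDN17, CLDN19, CLDN20 and CLDN25 held at most 3 reads in any cow, and CLDN14, a claudin of the inner ear and kidney, and CLDN18, a claudin of stomach and lung, held 0 in all 6.

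Among the other membrane proteins of the junction, 0 of 7 passed the test in limma with all cows, 0 had an unadjusted p under 0.05, and DESeq2 called 0. F11R, which is junctional adhesion molecule A, was the 1 whose groups did not overlap. It counted 4068, 4256 and 3976 in LF/LCL and 5107, 4862 and 5270 in SF/SCL. The spread within each group was small beside the gap. The log2 difference was 0.31 (SE 0.15, adjusted p = 0.645 in limma, 0.0354 to 0.999 over the alternatives) and 0.34 without cow 489215 (SE 0.08, adjusted p = 0.0354). On the scale centred on epithelium markers it was -0.26.

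OCLN, which encodes occludin, counted 3333, 2893 and 2757 in LF/LCL and 2564, 3532 and 2462 in SF/SCL. Cows 856 and 97 were below the LF/LCL cows and cow 489215 was above them. MARVELD2, its neighbour in the RefSeq order, encodes tricellulin, the protein of the points where 3 cells meet, and had the opposite arrangement in cow 489215, with 712, 743 and 540 in LF/LCL and 933, 338 and 641 in SF/SCL. The differences were -0.08 (SE 0.20) for OCLN and -0.17 (SE 0.39) for MARVELD2, with adjusted p of 0.937 and 0.936 in limma. Without cow 489215 they were -0.25 for OCLN and 0.23 for MARVELD2, the latter turned in direction, with adjusted p of 0.161 and 0.495.

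MARVELD1 shares the MARVEL domain with occludin but is not known as a component of the strands. It counted 7496, 7674 and 6726 in LF/LCL and 5745, 13521 and 5843 in SF/SCL. Cow 489215 was at the top and the other SF/SCL cows at the bottom. The summed smooth muscle markers placed the SF/SCL cows the same way against LF/LCL. MYH11 among them did not, at 116653 in cow 489215 and 137623 to 191119 in LF/LCL. SF/SCL minus LF/LCL, on the log2 scale, was 0.08 (SE 0.36, adjusted p = 0.967 in limma) with all cows and -0.33 (SE 0.09, adjusted p = 0.0539) without cow 489215. JAM3, junctional adhesion molecule C, counted 3298, 2581 and 3270 in LF/LCL and 2269, 4496 and 2622 in SF/SCL, with cow 489215 again the highest. Its difference was -0.02 (SE 0.29) and, without that cow, -0.31. JAM2 spanned 1613 to 1839 in LF/LCL and 1399 to 3466 in SF/SCL, and MARVELD3 169 to 298 and 193 to 453, both highest in cow 489215.

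Cingulin, the product of CGN, links the junction to actin and myosin and holds back a RhoA activator. CGN counted 3013, 2527 and 2584 in LF/LCL and 4660, 3627 and 4675 in SF/SCL. All SF/SCL cows were above all LF/LCL cows, with cow 489215 the nearest. The log2 difference was 0.67 (SE 0.18, unadjusted p = 0.00879, adjusted p = 0.405 in limma, 0.00596 to 0.999 over the alternatives). Without cow 489215 it was 0.79 (SE 0.10, adjusted p = 0.00629), and on the scale centred on epithelium markers it was 0.10. Its relative CGNL1, paracingulin, counted 759, 934 and 810 in LF/LCL and 1135, 95.9 and 630 in SF/SCL. Cow 489215 was far below every other cow, while cows 856 and 97 lay on either side of the LF/LCL range. The difference was -1.02 (SE 0.86, adjusted p = 0.836 in limma) with all cows and 0.02 without cow 489215.

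The zonula occludens rows, which the symbol rule did not catch, encode the scaffolds to which claudins and occludin bind. ZO1 counted 8494, 8148 and 8026 in LF/LCL and 9028, 4820 and 8615 in SF/SCL, ZO2 counted 3579, 2926 and 2680 against 4004, 3884 and 4336, and ZO3 spanned 1766 to 2236 and 1279 to 1769. For ZO2 the groups did not overlap, for ZO1 cow 489215 alone was below the LF/LCL cows, and ZO3 barely overlapped. The log2 differences of ZO1, ZO2 and ZO3 were -0.19, 0.42 and -0.36 with all cows and 0.10, 0.46 and -0.47 without cow 489215, so that ZO1 turned in direction, and 0 of the 3 passed the test in limma in either fit.

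**Figure D3:**
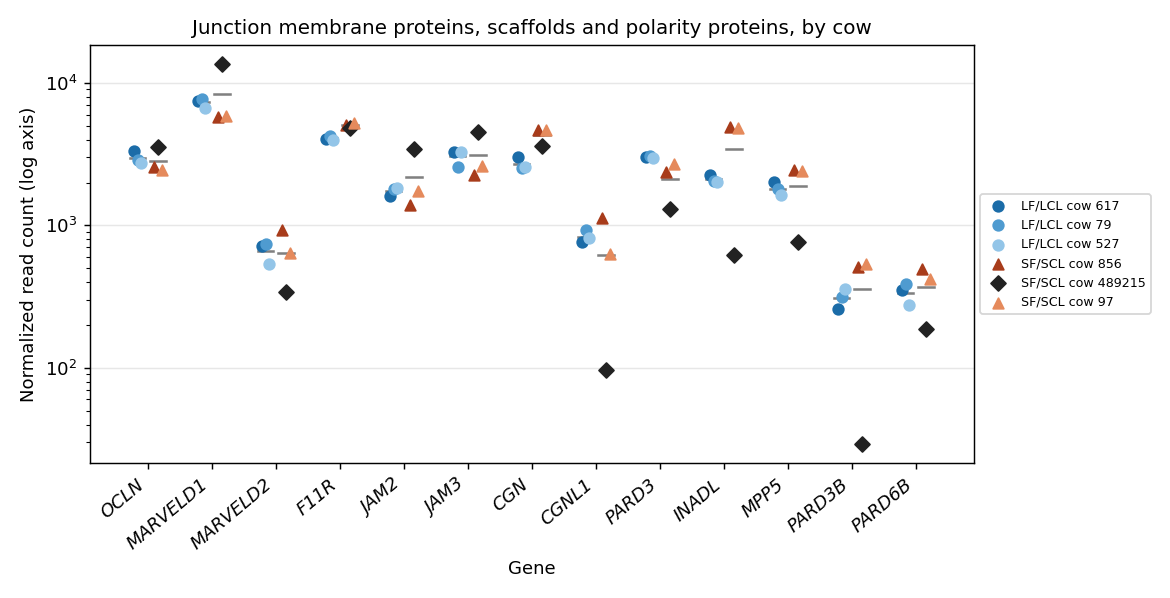
Normalized read counts (y axis, log scale) of 13 membrane, scaffold and polarity genes (x axis), with 1 marker per cow and a grey line at each group mean. The diamond of SF/SCL cow 489215 lies below all other cows for MARVELD2, CGNL1, PARD3, INADL, MPP5, PARD3B and PARD6B, and above them for OCLN, MARVELD1, JAM2 and JAM3.

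For 5 of the 7 polarity proteins, cow 489215 was below all other cows, the exceptions being PARD6G and PARD6A. INADL encodes PATJ, a large protein with many PDZ domains that belongs to the Crumbs complex. It counted 2251, 2054 and 2032 in LF/LCL and 4883, 615 and 4863 in SF/SCL. Cows 856 and 97 were nearly equal and far above the LF/LCL cows, whereas cow 489215 was far below them. The estimated log2 difference was 0.21 (SE 0.79, adjusted p = 0.959 in limma, 0.00161 to 0.999 over the alternatives) with all cows and 1.21 (SE 0.09, adjusted p = 0.00205) without cow 489215. MPP5, which encodes PALS1, the partner that joins PATJ to Crumbs, counted 2012, 1801 and 1625 in LF/LCL and 2465, 771 and 2424 in SF/SCL. The cows stood in the same arrangement, with a difference of -0.12 (SE 0.46, adjusted p = 0.960 in limma) with all cows and 0.44 (adjusted p = 0.0427) without cow 489215.

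PARD3 encodes the scaffold of the Par complex, which recruits atypical protein kinase C to the junction. It counted 3007, 3096 and 2966 in LF/LCL and 2359, 1297 and 2717 in SF/SCL. Every SF/SCL cow was below every LF/LCL cow, and cow 489215 the farthest. The log2 difference was -0.58 (SE 0.29, adjusted p = 0.662 in limma) with all cows and -0.26 (adjusted p = 0.114) without cow 489215. PARD3B, its relative, counted 260, 314 and 357 in LF/LCL and 507, 29.3 and 533 in SF/SCL, an arrangement like that of INADL. Its difference was -0.61 (SE 1.10, adjusted p = 0.914 in limma) and, without cow 489215, 0.76 (adjusted p = 0.0319). On the recovered reads with all cows the direction turned, at 0.21 in DESeq2 and 0.19 in edgeR. Of the adaptors that bind the kinase, PARD6B spanned 277 to 385 in LF/LCL and 186 to 498 in SF/SCL, PARD6G 493 to 581 and 383 to 508, and PARD6A 59.7 to 110 and 87.8 to 131.

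GJA1, the main gap junction protein of smooth muscle and of many epithelia, was the connexin with the most reads. It counted 5807, 5356 and 4063 in LF/LCL and 6397, 5874 and 5189 in SF/SCL. The groups overlapped and no cow stood apart. SF/SCL minus LF/LCL, on the log2 scale, was 0.21 (SE 0.20, adjusted p = 0.859 in limma), 0.20 without cow 489215 and -0.36 on the scale centred on epithelium markers.

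GJB5, a connexin known from skin and other stratified epithelia, counted 768, 1002 and 1231 in LF/LCL and 19.0, 2326 and 155 in SF/SCL. Cow 856 was the lowest and cow 97 the next, both below every LF/LCL cow, while cow 489215 exceeded the LF/LCL range. The difference with all cows was -2.34 on the log2 scale (SE 1.58, adjusted p = 0.773 in limma, 0.0178 to 0.979 over the alternatives). On the recovered reads it was smaller, at -0.27 in DESeq2 and -0.32 in edgeR. Without cow 489215 it was -4.14 (SE 0.78, adjusted p = 0.0178). GJA4, a connexin of endothelium, counted 466, 488 and 285 in LF/LCL and 223, 289 and 288 in SF/SCL, and differed by -0.60 (SE 0.30, adjusted p = 0.650 in limma), or by -0.66 without cow 489215 (adjusted p = 0.144).

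GJA5, known from the atrium of the heart and from arterial endothelium, was left out of the test because its standard deviation exceeded its mean. It counted 620, 1063 and 718 in LF/LCL and 4126, 738 and 8051 in SF/SCL. Cows 856 and 97 were far above the LF/LCL cows, with cow 489215 among the latter. With the filter on the mean alone, the difference with all cows was 1.90 (SE 0.84, adjusted p = 0.602 in limma). With no filter and without cow 489215, a fit chosen after seeing the data, it was 2.89 (SE 0.34, adjusted p = 0.00516, 0.00516 to 0.636 over the alternatives).

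GJC1, a connexin of smooth muscle and of the conduction system of the heart, counted 398, 416 and 389 in LF/LCL and 324, 305 and 199 in SF/SCL. The LF/LCL cows lay close together and above all SF/SCL cows. The log2 difference was -0.57 (SE 0.27, adjusted p = 0.637 in limma, 0.0929 to 0.999 over the alternatives) and -0.66 without cow 489215. GJB1, a connexin of liver and Schwann cells, spanned 343 to 570 in LF/LCL and 149 to 780 in SF/SCL, with cow 489215 the highest. GJB2, GJB6, GJC3 and GJA9 had means between 15 and 1000 with at most 163 normalized counts in any cow, GJA10 held at most 7 reads, and GJA3, GJD2 and GJD4 held 0 in all cows.

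**Figure D4:**
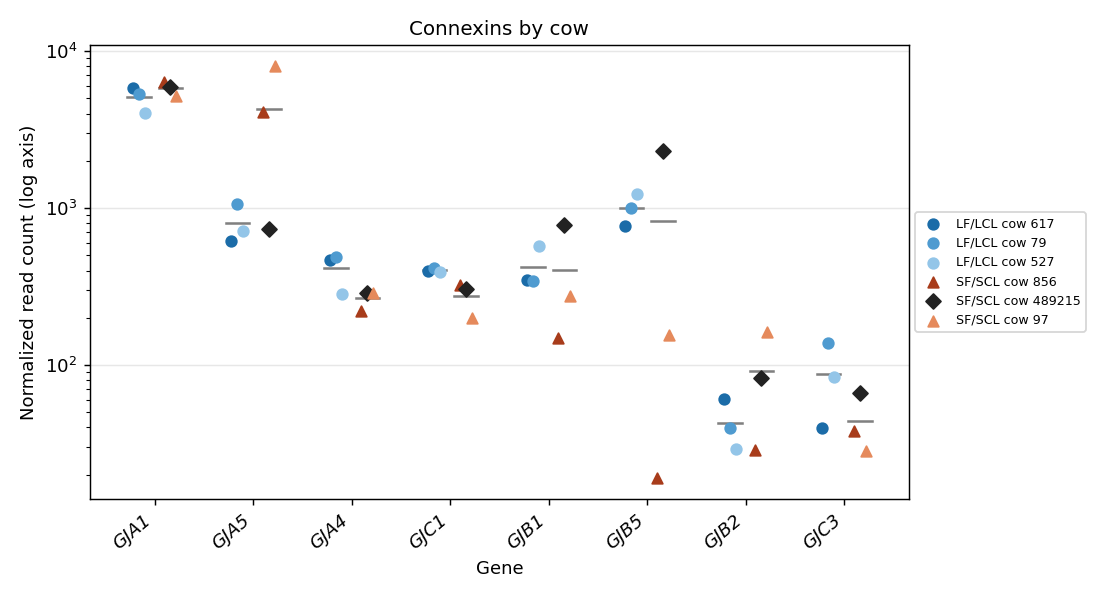
Normalized read counts (y axis, log scale) of 8 connexins (x axis), with 1 marker per cow and a grey line at each group mean. For GJB5 the triangles of SF/SCL cows 856 and 97 lie below all circles of LF/LCL and the diamond of cow 489215 above them, and for GJA5 the triangles lie above all other cows.

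Read by role, the median log2 difference between the groups with all cows was -0.07 for the 11 claudins, -0.57 for the 13 connexins, 0.08 for the 7 other membrane proteins, -0.12 for the 7 polarity proteins and -0.17 for the 2 scaffolds. Without cow 489215 these medians were -0.03, -0.79, -0.17, 0.44 and 0.41. On the recovered reads with all cows, DESeq2 gave 0.03, -0.27, 0.19, 0.13 and 0.13, so that the claudins, polarity proteins and scaffolds turned in direction. The polarity proteins and scaffolds thus had the medians that moved most with that cow. Compared with the mean of the other cows, cow 489215 had a median log2 difference of 0.80 over the claudins, 0.70 over the connexins and 0.69 over the other membrane proteins, but -1.12 over the polarity proteins and -1.50 over the scaffolds. This last value is only the midpoint of 0.11 for CGN and -3.11 for CGNL1.

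The length of the genes moved with this pattern by role, the scaffold values being midpoints of CGN and the longer CGNL1. Measured as the RefSeq span including introns, which was found for all 40 tested members and for 86.0% of the tested genes with a symbol, the median span was 2.89 kb for the claudins, 7.10 kb for the connexins, 29.1 kb for the other membrane proteins, 90.8 kb for the polarity proteins and 97.7 kb for the scaffolds. Over all tested genes divided into 4 equal parts by span, the median difference of cow 489215 from the other cows went from 0.56 in the shortest through 0.15 and -0.18 to -0.73 in the longest. The part of gene length in the members' values was not tested.

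**Figure D5:**
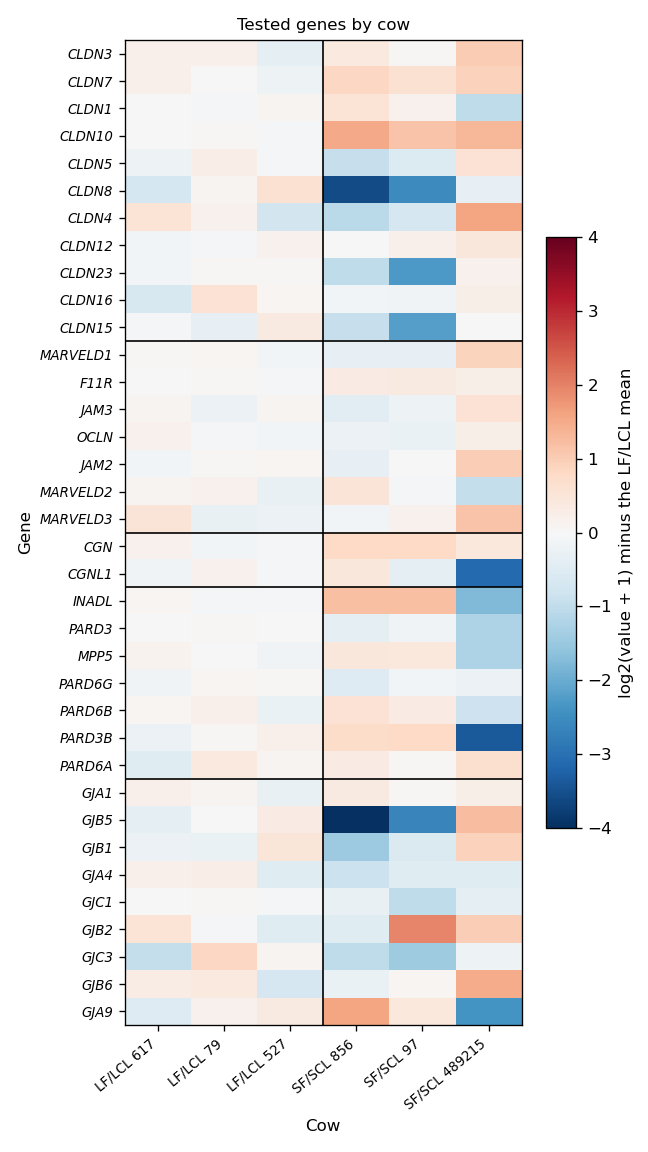
Log2 normalized count plus 1, minus the LF/LCL mean, for 36 of the tested members (rows, divided by lines into claudins, other membrane proteins, scaffolds, polarity proteins and connexins) in each cow (columns), with values beyond 4 in either direction drawn at 4. SF/SCL cows 856 and 97 resemble each other in most rows, and cow 489215 differs from them widely in, for example, INADL, PARD3B, CGNL1, CLDN8, CLDN4 and GJB5.

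Genes whose products work with these proteins were read in the same way. The list held 45 partner symbols (kinases, adaptors, cadherins, catenins and other polarity and junction proteins). Among them, AFDN and MLLT4 name the same gene, found as MLLT4, and PATJ and PALS1 are the members INADL and MPP5. Of the 45 symbols, 38 were found and 35 tested. In limma 0 of them passed with all cows, 1 had an unadjusted p under 0.05, and DESeq2 called 0. Groups without overlap were seen for 7, or 20.0%, against 18.1% of all genes. Those higher in SF/SCL were MAGI3, a junction scaffold, PRKCZ, an atypical protein kinase C of the Par complex, and CTNNB1 and CTNNA1, the catenins of adherens junctions. Those higher in LF/LCL were MPDZ, a scaffold related to PATJ, SCRIB, a basolateral polarity protein, and CDH5, the cadherin of endothelium. PRKCI, the other such kinase listed, overlapped, with a log2 difference of -0.19 against 0.19 for PRKCZ in limma with all cows. Without cow 489215, 9 of the 35 passed, 6 higher in SF/SCL and 3 higher in LF/LCL, and 25 did not overlap, or 71.4%, where 18.2% of all genes passed and 52% did not overlap.

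Among the partners called without cow 489215 were ILDR1 and ILDR2, angulins of the tricellular junction, with log2 differences of 0.68 (adjusted p = 0.0196 in limma) and 1.117 (adjusted p = 0.00537). With all cows these differences were 0.19 and 0.57 (adjusted p = 0.930 and 0.832). LLGL1 and LLGL2, the basolateral polarity proteins that oppose the Par complex, differed in opposite directions without cow 489215, by 0.69 and -0.60 (adjusted p = 0.00459 and 0.00984 in limma), and with all cows were at 0.32 and -0.40 (adjusted p = 0.864 and 0.691). CDH5 differed by -0.61 without that cow and by -0.87 (SE 0.27) with all cows, its values being 1119, 1145 and 1065 in LF/LCL and 709, 422 and 742 in SF/SCL. It is itself 1 of the endothelium markers. CRB1, the Crumbs protein that binds MPP5, was left out of the test by its spread: it counted 1616, 363 and 256 in LF/LCL and 5894, 395 and 341 in SF/SCL, high in cow 617 and cow 856.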

How the data were processed

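RNA-seq of the isthmus was done in 6 cows, 3 per group, with 1 library each. The authors filtered paired reads, aligned them to the bovine assembly UMD3.1 with TopHat2 2.0.8 and Bowtie2 2.1.0, used HTSeq 0.5.4p2 to count the reads mapped to 1 place for each Ensembl gene, and divided the counts by DESeq 1.12.1 size factors (versions per the submitters' processing notes). Reads shared between near-identical genes were thereby dropped, and use of the strand in counting is not given in the sources used here. The signal values deposited by the authors are these normalized counts, without a filter. Dividing them by the value of 1 read gave whole reads for 100% of 147696 values, within 0.05 of a read. Columns of no sample numbered 0.

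Values were tested as log2(value + 1) with limma 3.58.1 in R 4.3.3 (empirical Bayes with trend and robust), on genes with a mean above 5 and above the standard deviation, with Benjamini-Hochberg adjustment over all 15387 and a threshold of 0.05. The test had been planned for this unit, and the recovered reads were also tested with DESeq2 1.42.0 and with edgeR 4.0.16 (TMM or DESeq2 size factors). Other alternatives were TMM rescaling, centring on the mean of the general epithelium markers, other filters and pseudocounts, and leaving out each cow. Fold changes on this scale are understated for genes with few reads. The fits were tested on simulated data with known changes before use. Tables and plots were made with Python 3.11.15, numpy 2.4.6, pandas 2.3.3, scipy 1.17.1 and matplotlib 3.10.9.

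Members, lists and tests were chosen with earlier results of these data known. Values in each cow were printed for members with a mean of at least 100 that did not overlap, those with an unadjusted p under 0.05, the 3 highest means of each role, and those called without cow 489215 at an absolute log2 difference of at least 1. Of these 22, some are not reported here, and members named beyond them fill out a role. Counts and medians cover all members. RefSeq entries of the assembly NIAB-ARS_B.indTharparkar matched 55 of 56 symbols and were used for spans and gene order only. P-values measure the spread between these selected cows, and limits from reads cover counting error only.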

Additional observations from a re-analysis of the deposited data

How the results depend on the processing

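Without cow 489215 the call changed for 13 members. The fit without filter and without that cow, chosen after seeing the data, called 14 of 51 members. Leaving out each cow in turn gave 0 to 13 members called, 6 to 25 not overlapping (11 without cow 617, or 27.5%, against 26.6% of all genes), 0 to 9 partners called and 0 to 2827 genes called. In the added fit 28 of 51 members, or 54.9%, did not overlap, against 46.3% of all genes. It called 10 of 38 partners and 2817 of 19066 genes. DESeq2 called 2 members and 409 genes. The median of the members was -0.68 when centred on epithelium markers and -0.22 to -0.09 over the cows left out, and it turned to 0.00718 in edgeR, 0.0343 in DESeq2 and 0.0344 in edgeR with DESeq2 size factors. On that centred scale CLDN3 (-0.0749), GJA1 (-0.36), MARVELD1 (-0.49), F11R (-0.26) and INADL (-0.35) turned below 0. Under edgeR with TMM, DESeq2 and edgeR with DESeq2 size factors, CLDN1 turned to 0.0114, 0.0338 and 0.0338, JAM3 to 0.00297, 0.0348 and 0.0349, and MPP5 to 0.0402, 0.0613 and 0.0615. PARD3B turned to 0.19 in edgeR and 0.21 in DESeq2, and CLDN4 to 0.30 and 0.34. Over the cows left out, the log2 difference was -0.42 to 0.35 for CLDN1, -0.33 to 0.29 for MARVELD1, -0.31 to 0.18 for JAM3, -0.29 to 1.21 for INADL, -0.40 to 0.44 for MPP5 and -1.75 to 0.0246 for CGNL1. In the added fit CLDN1 was at 0.35, MARVELD1 at -0.33, MPP5 at 0.44 and CGNL1 at 0.0246. The cause of these changes was not tested. TMM rescaling, both other pseudocounts, the filters and their removal kept the direction and the side of the threshold of every member named by the rule that had a value. No paired analysis was possible because the groups share no replicate number. Depth limits the 14 members with a mean under 15.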
